A study of Mus musculus with 8 samples.

Results

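The genes described here are 33 interferon-induced genes and interferon regulators, taken by symbol from a named list and read across every library of a study of mouse muscle satellite cells. All 33 symbols were in the table of 24328 genes. Of these, 28 reached 1 FPKM (fragments scaled to transcript length and library size) in at least 2 libraries and entered the tests, among 12515 genes tested. Mx1, Oas1a, Oas2, Zbp1 and Ifi44 did not reach that level and are given by their values alone.

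Satellite cells are the resident stem cells of skeletal muscle, and they lie quiescent under the basal lamina of the fibre until injury activates them. RNA was sequenced in 8 libraries, 2 for each of 4 groups, from C57BL/6 mice of 2 months. PFA-perfused cells came from Pax7-nGFP mice, which carry a nuclear green fluorescent reporter, perfused with paraformaldehyde, which fixes the muscle ahead of dissociation. PBS-perfused cells came from Pax7-nGFP mice perfused with buffer in place of the fixative. Unperfused cells came from wild-type mice with neither perfusion nor injury, and injury-activated cells from wild-type mice 2.5 days after muscle injury, also without perfusion. The sort, per the labels, kept Vcam+ cells and removed those with CD31, CD45 or Sca-1. An RNA kit meant for paraffin-embedded tissue served the fixed cells and a small-sample kit the unfixed ones, so fixation and RNA kit cannot be told apart. Which libraries were run on which of the 2 sequencers in the design text is not stated, and a difference between sequencers was not tested. Genotype label cannot be told apart from the treatment in any comparison of a Pax7-nGFP group with a wild-type group.

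Interferons are secreted proteins that bind paired cell-surface receptors and activate the kinases JAK1, JAK2 and TYK2. Type I interferon leads to a complex holding STAT2 and IRF9 that binds interferon-stimulated response elements, while interferon gamma acts through gamma-activated sites. The induced genes encode RNA sensors, the ubiquitin-like modifier ISG15, proteins that block viral translation or replication, and GTPases that act on intracellular pathogens. Many of these genes are also transcribed at a basal level without added interferon.

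Both elements were searched for in the RefSeq promoter table (GRCm38.p6; from 250 bases before to 50 after each start), which held 26 of the 33 genes. Mx1, Mx2, Oas2, Usp18, Parp14, Zbp1 and Dhx58 were not in it. The core of the response element, GAAANNGAAA on either strand, lay in the promoters of 14 of the 26 genes, and in 46.7% of their 30 promoters, against 3.44% of all 32851 promoters of the same length. In 12 of the 14 it lay wholly upstream of the start. The gamma-activated site, TTCNNNGAA, which is its own reverse complement, lay in 20% of the 30 promoters against 8.3% of all promoters. Only the letters were matched, and no measurement of binding was available here. Matches of the response element can overlap one another, as they do in Isg15 and Irgm1. The promoters printed here were picked from those with a match, in 5′ to 3′ direction along the gene's strand, with the matched letters in capitals. Other genes with contrasts described below had none: the promoters of Cmpk2 and Xaf1 held neither element, and those of Ifit2 held no response element. The sequences come from RefSeq by gene symbol, and their coordinates are those of GRCm38.p6, not of the mm9 build that the submitters' processing notes name for the expression values.
Isg15 (response element, chr4:156200850-156200921, minus strand): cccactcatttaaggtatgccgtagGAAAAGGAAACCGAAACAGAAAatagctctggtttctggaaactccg
Ifit1 (response element, chr19:34640760-34640838, plus strand): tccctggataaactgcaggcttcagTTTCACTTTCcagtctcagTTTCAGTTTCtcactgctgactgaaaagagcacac
Irgm1 (response element, chr11:48871421-48871475, minus strand): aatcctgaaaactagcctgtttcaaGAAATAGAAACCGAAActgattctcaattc
Gbp2 (response element, chr3:142620579-142620638, plus strand): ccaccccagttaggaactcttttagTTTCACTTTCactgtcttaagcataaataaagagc
Slfn9 (response element, chr11:82991841-82991900, minus strand): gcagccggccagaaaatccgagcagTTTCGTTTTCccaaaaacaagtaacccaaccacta
Irf1 (gamma-activated site, chr11:53769899-53769957, plus strand): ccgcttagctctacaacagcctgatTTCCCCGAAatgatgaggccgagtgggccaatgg

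FPKM summed to between 461454 and 582336 per library, and 9469 to 11483 genes reached 1 FPKM. The files hold no counts, so the read depth is unknown. Rn45s, the ribosomal RNA precursor, took 9.8 and 19.4% of the total in the PFA-perfused libraries and 0.0266 to 6.64% in the others. Libraries of a group correlated at r = 0.972 to 0.997 across genes. Nothing in the labels ties the paired libraries to different animals, and the p-values therefore reflect the spread between libraries alone, which may be technical. Of the 11 satellite cell markers listed, Pax7, Myf5, Myod1 and Vcam1 were present in all 8 libraries. Pax7 was at 328 and 567 FPKM in PFA-perfused and at 4.59 and 4.4 FPKM in injury-activated libraries. Calcr was at 0.682 and 0.548 FPKM in the injury-activated libraries. Of the 11, 8 were called lower and 1 higher in injury-activated than in unperfused cells, against 29.3% and 40.8% of all genes tested. In such bulk libraries, fewer cells of a type and less RNA per cell cannot be told apart.

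The 33 genes were low to moderate in level, and 18 had their lowest group mean after injury. Summed over the genes, the PFA-perfused libraries held 258.2 and 246.6 FPKM, the PBS-perfused 335.1 and 331.6, the unperfused 190.3 and 184.3 and the injury-activated 369 and 365.9. One gene, Slfn9, made up most of the last pair: without it the sums were 254.2 and 240.9, 332.1 and 330.1, 188.4 and 181.9, and 141.7 and 124.6 FPKM. By group mean, 16 of the 33 genes were highest in PBS-perfused cells, 10 in PFA-perfused, 6 in injury-activated and 1, the sensor gene Dhx58, in unperfused cells. Injury-activated cells had the lowest mean of 18 genes, unperfused cells of 10, PFA-perfused of 4 and PBS-perfused of 1. These orders and sums are descriptive, use values as deposited and take no account of the spread between libraries. Factors for scaling by a trimmed mean of ratios ran from 0.639 (unperfused replicate 2) to 1.65 (PFA-perfused replicate 1). With scaling, the median log2(FPKM + 1) of the 33 genes went from 2.2 and 2.3 to 1.67 and 1.81 in PFA-perfused libraries. In unperfused libraries it went from 2.12 and 1.99 to 2.37 and 2.5, so the order of these groups turned.

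**Figure D1:**
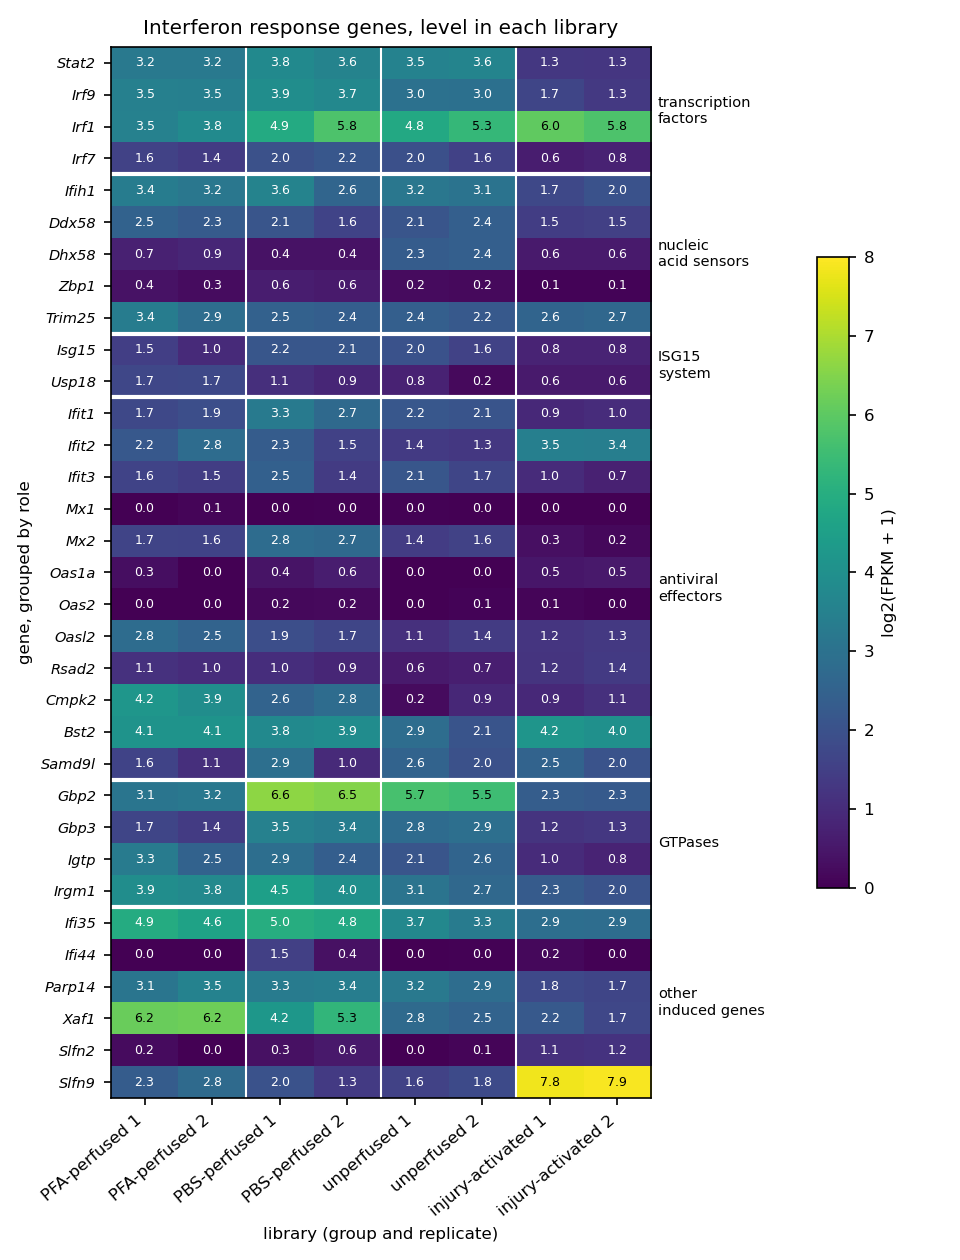
Colour gives log2(FPKM + 1) of each of the 33 genes (rows, grouped by role) in each of the 8 libraries (columns, 2 per group). Gbp2 stands out in the PBS-perfused and unperfused libraries, Xaf1 in the PFA-perfused and Slfn9 in the injury-activated libraries, where its level was 227 and 241 FPKM.

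Of the transcription factor genes, Stat2 and Irf9 encode parts of the type I complex, and both were lowest after injury. Stat2 was at 8.31 and 8.44 FPKM in PFA-perfused, 13 and 11 in PBS-perfused, 10.7 and 11.1 in unperfused and 1.48 and 1.41 in injury-activated libraries. The 6 libraries of uninjured muscle all lay above the injured pair, with a log2 fold change of FPKM + 1 of -2.28 ± 0.18 (SE; limma with Benjamini-Hochberg adjustment over all genes tested, adjusted p = 6.98e-06) against unperfused cells. Irf9 was at 10.3 and 9.96 FPKM in PFA-perfused, 14.1 and 12.2 in PBS-perfused, 6.83 and 6.76 in unperfused and 2.2 and 1.51 in injury-activated libraries. It fell by 1.46 ± 0.20 on the log2 scale from unperfused to injury-activated cells (limma, adjusted p = 0.000157). A pseudocount of 1 was added to every FPKM value before the log2, so fold changes of genes at low levels are understated.

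Irf1, a factor induced by interferon gamma through the gamma-activated site printed above, had its highest mean after injury and its lowest in fixed cells. It was at 10.5 and 13.1 FPKM in PFA-perfused, 28.7 and 53.4 in PBS-perfused, 27.7 and 39.6 in unperfused and 64.6 and 53.3 in injury-activated libraries. Every library of unfixed cells lay above both fixed libraries, and the PBS-perfused and unperfused ranges overlapped. Against PFA-perfused cells the log2 fold change was 1.66 ± 0.32 in PBS-perfused (adjusted p = 0.00166), 1.42 ± 0.32 in unperfused (adjusted p = 0.0027) and 2.23 ± 0.32 in injury-activated cells (adjusted p = 0.000176). The step from unperfused to injury-activated cells, 0.81 ± 0.32 (limma, adjusted p = 0.0446), did not pass the threshold after scaling between libraries, at 0.60, nor without any one of 5 libraries: both injured, both PFA-perfused and unperfused replicate 1. Irf7, which amplifies type I interferon production, stayed between 0.558 and 3.52 FPKM in all libraries.

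Among the sensor genes, Ifih1 (MDA5) and Ddx58 (RIG-I) bind viral RNA in the cytoplasm, Dhx58 (LGP2) modulates both, Trim25 encodes a ubiquitin ligase that acts on RIG-I, and Zbp1 senses Z-form nucleic acid. Dhx58 was at 4.05 and 4.31 FPKM in the unperfused libraries and between 0.303 and 0.819 FPKM in the other 6. Its rise over PFA-perfused cells was 1.58 ± 0.14 on the log2 scale (limma, adjusted p = 1.16e-05), and it fell by 1.79 ± 0.14 from unperfused to injury-activated cells (adjusted p = 6.13e-06). Ifih1 ranged from 5.11 to 11 FPKM in the 6 libraries without injury and was at 2.32 and 3.06 FPKM after it. Ddx58 ranged from 2.07 to 4.76 FPKM without injury and was at 1.74 and 1.83 FPKM after it. Both fell from unperfused to injury-activated cells (limma, adjusted p = 0.00463 and 0.0114). The fall of Ddx58, -0.78 ± 0.22 on the log2 scale, was not called without either injury-activated library (adjusted p = 0.0679 and 0.0548) or without unperfused replicate 2 (0.0773). Trim25 was at 9.25 and 6.28 FPKM in PFA-perfused and between 3.71 and 5.4 FPKM in all other libraries, and Zbp1 stayed between 0.047 and 0.555 FPKM.

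Isg15 encodes the ubiquitin-like modifier and Usp18 the protease that removes it and that also restrains the type I receptor. Isg15 was at 1.79 and 0.938 FPKM in PFA-perfused, 3.44 and 3.37 in PBS-perfused, 3.04 and 2 in unperfused and 0.752 and 0.719 in injury-activated libraries. Usp18 had its highest values, 2.25 and 2.33 FPKM, in the PFA-perfused libraries, where Isg15 was not at its highest, and lay between 0.155 and 1.12 FPKM elsewhere. From PFA-perfused to PBS-perfused cells the pair moved in opposite directions, Isg15 by 0.92 ± 0.22 and Usp18 by -0.75 ± 0.20 on the log2 scale (limma, adjusted p = 0.00544 and 0.00853). The fall of Usp18 was not called after scaling, at -0.34.

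The 12 antiviral effector genes did not move together. Cmpk2, a mitochondrial nucleotide kinase gene beside Rsad2 in the genome, was at 17.4 and 14.3 FPKM in PFA-perfused, 4.89 and 6.12 in PBS-perfused, 0.187 and 0.85 in unperfused and 0.889 and 1.15 in injury-activated libraries. The 3 unfixed groups all lay below the fixed libraries, by -1.37 ± 0.25, -3.50 ± 0.25 and -3.06 ± 0.25 on the log2 scale (limma, adjusted p = 0.00117, 3.49e-06 and 5.3e-06). Bst2, which encodes tetherin, a membrane protein that holds budding virus on the cell, was at 16.2 and 16.2 FPKM in PFA-perfused, 13 and 13.9 in PBS-perfused, 6.22 and 3.23 in unperfused and 16.9 and 15 in injury-activated libraries. The unperfused pair was lowest, with a log2 fold change of -1.64 ± 0.26 against PFA-perfused cells (limma, adjusted p = 0.000343), and injury-activated cells were 1.62 ± 0.26 above unperfused cells (adjusted p = 0.000403).

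Within the IFIT family, whose proteins bind viral RNA or the translation factor eIF3, Ifit1 and Ifit2 differed in the order of the groups. Ifit1 was at 2.34 and 2.82 FPKM in PFA-perfused, 8.85 and 5.66 in PBS-perfused, 3.48 and 3.23 in unperfused and 0.896 and 1 in injury-activated libraries. Ifit2 was at 3.59 and 6.17, 4.03 and 1.91, 1.58 and 1.46, and 9.96 and 9.82 FPKM in the same order of groups. After injury Ifit1 fell by 1.16 ± 0.22 and Ifit2 rose by 2.11 ± 0.30 on the log2 scale against unperfused cells (limma, adjusted p = 0.00109 and 0.000174). Ifit3 lay between 0.678 and 4.53 FPKM. The IFIT, OAS, GBP and Schlafen genes are families of close relatives, and how reads shared between copies were assigned is not given in the sources used here, so levels of single members are uncertain.

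Mx2, a gene of the dynamin-like GTPase family, was at 2.14 and 2.04 FPKM in PFA-perfused, 6.1 and 5.64 in PBS-perfused, 1.67 and 1.98 in unperfused and 0.243 and 0.125 in injury-activated libraries. Its near relative Mx1 stayed at or below 0.0702 FPKM. Oasl2, of the oligoadenylate synthetase family, was highest in PFA-perfused libraries at 6.12 and 4.79 FPKM and lay between 1.15 and 2.76 FPKM elsewhere, while Oas1a and Oas2 did not exceed 0.554 FPKM. Rsad2 (viperin) ranged from 0.484 to 1.56 FPKM. Samd9l ranged from 0.942 to 6.59 FPKM, and those extremes were the 2 PBS-perfused libraries. It was called in no comparison as deposited, but its log2 fold changes of 0.93 in unperfused and 0.95 in injury-activated against PFA-perfused cells (limma, adjusted p = 0.146 and 0.141) were called without either PBS-perfused library, in fits of the compared groups alone, with the replicate number as a block (adjusted p = 0.0371 and 0.0348) and after scaling, at 1.70 and 1.54.

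Of the interferon-induced GTPase genes, Gbp2 differed most between groups. Gbp2, which encodes a guanylate-binding protein that coats bacteria and parasite vacuoles, was at 7.7 and 8.22 FPKM in PFA-perfused, 98.6 and 90.5 in PBS-perfused, 50.3 and 45 in unperfused and 4.08 and 3.81 in injury-activated libraries. No libraries of different groups overlapped in values as deposited. After scaling, the log2 fold change was -0.42 in unperfused against PBS-perfused and -0.04 in injury-activated against PFA-perfused cells, neither of them called. The log2 fold change against PFA-perfused cells was 3.41 ± 0.19 in PBS-perfused (limma, adjusted p = 6.65e-06) and 2.44 ± 0.19 in unperfused cells (adjusted p = 5.51e-06), and Gbp2 fell by 3.30 ± 0.19 from unperfused to injury-activated cells (adjusted p = 1.35e-06). As deposited, Gbp3 had the same order at lower levels: 2.22 and 1.61, 10.4 and 9.33, 5.99 and 6.57, and 1.29 and 1.45 FPKM. Its log2 fold change after scaling was -0.08 in unperfused against PBS-perfused cells, not called. In injury-activated against PFA-perfused cells it was -0.29 as deposited and 0.29 after scaling, called in neither.

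The products of the immunity-related GTPase genes Irgm1 and Igtp (Irgm3) regulate other GTPases of the family at vacuole membranes. Unlike Gbp2, neither gene was called higher in PBS-perfused or unperfused than in PFA-perfused cells as deposited. Irgm1 was at 14 and 12.5 FPKM in PFA-perfused, 21.7 and 14.8 in PBS-perfused, 7.4 and 5.54 in unperfused and 3.91 and 3.12 in injury-activated libraries. It fell by 1.35 ± 0.24 from PBS-perfused to unperfused cells and by 1.66 ± 0.24 from PFA-perfused to injury-activated cells (limma, adjusted p = 0.00165 and 0.000216). Its log2 fold change in PBS-perfused against PFA-perfused cells, 0.41 as deposited, was called higher after scaling, at 0.97. In unperfused against PFA-perfused cells it was called lower as deposited, at -0.94, and not called after scaling, at 0.11. Igtp ranged from 3.33 to 9.02 FPKM without injury and was at 0.993 and 0.745 FPKM after it.

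Of the other induced genes, Xaf1, Ifi35 and Slfn9 carried the largest levels. Xaf1, which encodes a partner of the apoptosis inhibitor XIAP, was at 71.7 and 73.6 FPKM in PFA-perfused, 18 and 37.7 in PBS-perfused, 5.78 and 4.82 in unperfused and 3.75 and 2.27 in injury-activated libraries. Its levels did not overlap between groups, and the log2 fold change against PFA-perfused cells was -3.55 ± 0.33 in unperfused (limma, adjusted p = 1.47e-05) and -4.22 ± 0.33 in injury-activated cells (adjusted p = 4.66e-06). In PBS-perfused cells it was -1.44 ± 0.33 (adjusted p = 0.00449), which was not called after scaling, at -0.84. Ifi35, which encodes a leucine-zipper protein that pairs with NMI, was at 29 and 23.6, 30.6 and 27.2, 12.4 and 9.02, and 6.46 and 6.32 FPKM in the same order of groups. As deposited, its PFA-perfused and PBS-perfused ranges overlapped, and the unperfused and injury-activated pairs lay below both. The log2 fold change in unperfused against PFA-perfused cells, -1.23 as deposited, was not called after scaling, at -0.13. In PBS-perfused against PFA-perfused cells it was called higher after scaling, at 0.72.

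Slfn9, a Schlafen family gene, was at 3.97 and 5.74 FPKM in PFA-perfused, 3 and 1.54 in PBS-perfused, 1.96 and 2.48 in unperfused and 227 and 241 in injury-activated libraries. The rise after injury, 6.19 ± 0.26 on the log2 scale against unperfused cells (limma, adjusted p = 5.35e-07), ran against the falls of most of the other genes. Its near relative Slfn8 stayed between 0.00872 and 0.679 FPKM in the 8 libraries. Slfn2, another relative that restrains T cell and monocyte activation, was at 1.15 and 1.25 FPKM after injury and at or below 0.473 FPKM in the other libraries. Parp14, a mono-ADP-ribosyltransferase gene, ranged from 6.24 to 10.6 FPKM without injury and was at 2.37 and 2.19 FPKM after it. Ifi44 was at 1.85 and 0.285 FPKM in the PBS-perfused libraries, listed at 0 in the PFA-perfused pair and at or below 0.128 FPKM in the rest.

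**Figure D2:**
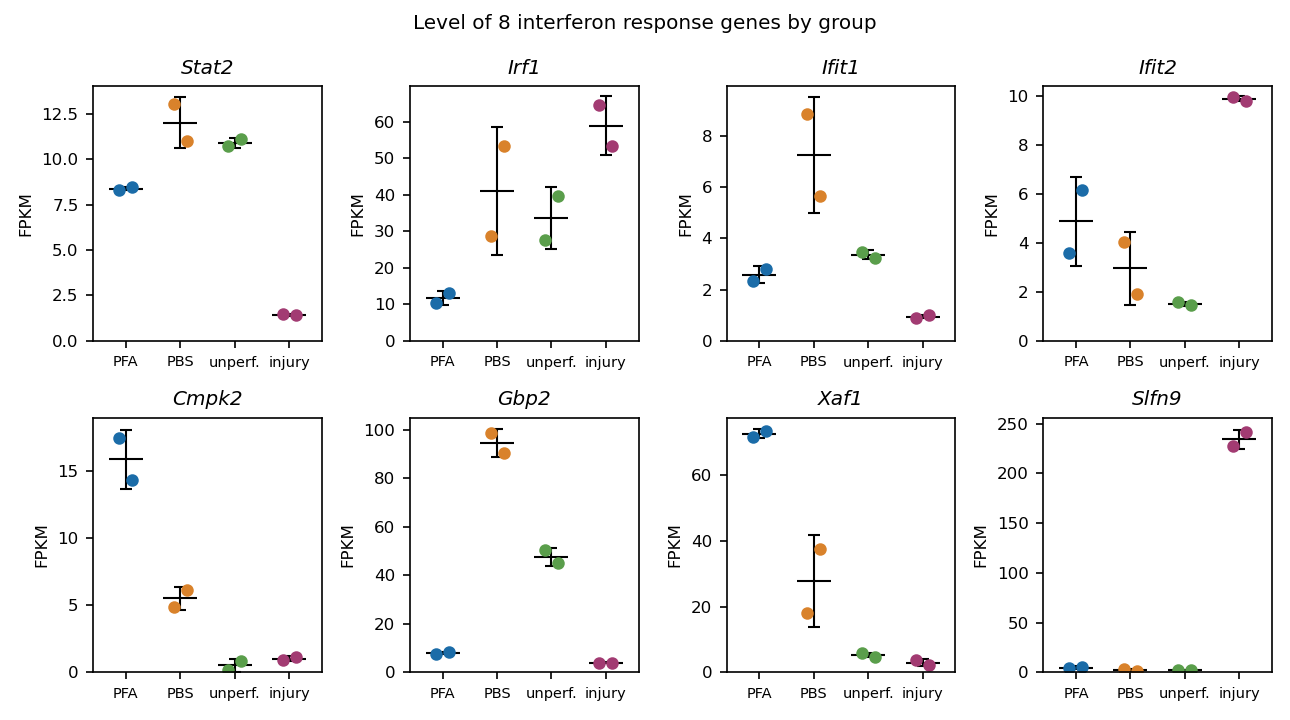
Points are FPKM of single libraries (2 per group), horizontal lines the group mean and bars ± SD, on linear axes that start at 0. Gbp2 is high in both PBS-perfused and unperfused libraries, Cmpk2 and Xaf1 are highest in the PFA-perfused libraries, and Slfn9 reaches 227 and 241 FPKM in the injury-activated libraries.

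The first comparison asked how satellite cells fixed inside the animal differed from cells of the same genotype label that were perfused with buffer and dissociated unfixed. In PBS-perfused cells 7 of the 28 genes tested were higher (Irf1, Irf7, Isg15, Ifit1, Mx2, Gbp2 and Gbp3), 7 were lower (Dhx58, Trim25, Usp18, Oasl2, Cmpk2, Xaf1 and Slfn9) and 14 were not called at an adjusted p under 0.05 (limma). Of all genes tested, 17.8% were called higher and 46.2% lower. The 7 rises are thus close to the background share and the 7 falls below it, and no difference from the shares was tested. Their median log2 fold change was 0.08, against -0.50 over all genes. With libraries scaled by a trimmed mean of ratios the all-gene median was -0.02, and then 12 genes were higher and 1, Cmpk2, was lower, with 28.1% and 26.4% of all genes called. Of the calls, 6 of the 7 higher (all but Irf7) and 1 of the 7 lower (Cmpk2) held in every alternative in which each could be tested. Without PBS-perfused replicate 2, the number lower was 4 and the median 0.22, and without PBS-perfused replicate 1 the median was -0.16.

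The comparison of unperfused with PFA-perfused cells set unfixed cells taken without perfusion beside the fixed ones, and it shares the PFA-perfused libraries with the first. In unperfused cells 5 genes were higher (Irf1, Dhx58, Isg15, Gbp2 and Gbp3), 12 lower and 11 not called. Over all genes 17.4% were higher and 56.3% lower, and the median was -0.22 for the interferon genes against -0.81 for all genes. The lower genes were Irf9, Trim25, Usp18, Ifit2, Oasl2, Rsad2, Cmpk2, Bst2, Irgm1, Ifi35, Xaf1 and Slfn9, with log2 fold changes from -3.55 (Xaf1) to -0.45 (Rsad2). After scaling, which brought the all-gene median to 0.03, 15 genes were higher and 5 lower (Usp18, Oasl2, Cmpk2, Bst2 and Xaf1), with 35.3% and 32.6% of all genes called, and the direction of Irf9, Trim25, Rsad2, Irgm1 and Slfn9 turned. Irf1, Dhx58, Gbp2 and Gbp3 stayed higher and Cmpk2, Bst2 and Xaf1 lower in every alternative in which each could be tested. Dhx58 passed the filter only through the unperfused libraries, where it is high, and was not tested without either of them.

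Buffer perfusion and no perfusion, both without fixation, were compared next. Only Dhx58 was higher in unperfused cells, at 1.98 ± 0.14 on the log2 scale (limma, adjusted p = 1.12e-05), while 12 genes were lower and 15 not called. The lower genes were Irf9, Ifit1, Mx2, Oasl2, Cmpk2, Bst2, Gbp2, Gbp3, Irgm1, Ifi35, Xaf1 and Slfn2. Of all genes, 13.1% were higher and 36.5% lower, and the median was -0.37 for the interferon genes and -0.36 for all genes, so the 12 falls are close to the background share. After scaling 2 genes were higher (Ddx58 and Dhx58) and 6 lower (Mx2, Cmpk2, Bst2, Irgm1, Ifi35 and Xaf1), with 24.2% and 22.9% of all genes called. These 6 falls and the rise of Dhx58 held in every alternative in which each could be tested. The number higher was 0 without either unperfused library, since Dhx58 then reached 1 FPKM in only 1 library and was not tested, and 3 without PBS-perfused replicate 1.

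Injury was compared within the wild-type, unperfused, unfixed cells. At 2.5 days after injury 16 of the 28 genes were lower, 6 higher and 6 not called. All genes tested were called lower in 29.3% and higher in 40.8% of cases, with a median log2 fold change of 0.17, against -0.75 for the interferon genes, which puts the interferon genes above the background for falls and below it for rises, a difference that was not tested. The lower genes were Stat2, Irf9, Irf7, Ifih1, Ddx58, Dhx58, Isg15, Ifit1, Ifit3, Mx2, Gbp2, Gbp3, Igtp, Irgm1, Ifi35 and Parp14. They included all 4 GTPase genes and 3 of the 4 transcription factor genes, and ranged from -3.30 (Gbp2) to -0.65 (Ifi35). The higher genes were Irf1, Ifit2, Rsad2, Bst2, Slfn2 and Slfn9, so of the 9 effector genes tested 3 were higher and 3 lower. Scaling gave 5 higher and 17 lower, with 39.1% and 33.9% of all genes called. Of the calls, 12 of the 16 falls (all but Ddx58, Ifit3, Irgm1 and Ifi35) held in every alternative in which each could be tested. So did 4 of the 6 rises (Ifit2, Bst2, Slfn2 and Slfn9). Slfn2 and Dhx58 passed the filter only through the groups where they are high, injury-activated and unperfused. Neither was tested without a library of that group, so those alternatives say nothing about them.

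Injury-activated cells were last set beside PFA-perfused cells, where genotype label, perfusion, fixation and injury all differ. In injury-activated cells 4 genes were higher (Irf1, Ifit2, Slfn2 and Slfn9), 16 lower and 8 not called, against 26.1% of all genes higher and 47.3% lower, and the medians were -0.87 and -0.48. The largest falls were those of Xaf1 at -4.22 and Cmpk2 at -3.06, and Gbp2, which had fallen by 3.30 against unperfused cells, was here lower by a log2 fold change of -0.86 ± 0.19 (limma, adjusted p = 0.00262). After scaling 7 genes were higher and 11 lower, with 42.5% and 31.1% of all genes called. The falls of Stat2, Irf9, Mx2, Cmpk2, Igtp, Irgm1, Ifi35, Parp14 and Xaf1 held in every alternative in which each could be tested. So did the rises of Irf1, Slfn2 and Slfn9, though Slfn2 was not tested without either injury-activated library. The fall of Gbp2 did not hold, at -0.04 after scaling. Without either injury-activated library the number higher was 2.

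**Figure D3:**
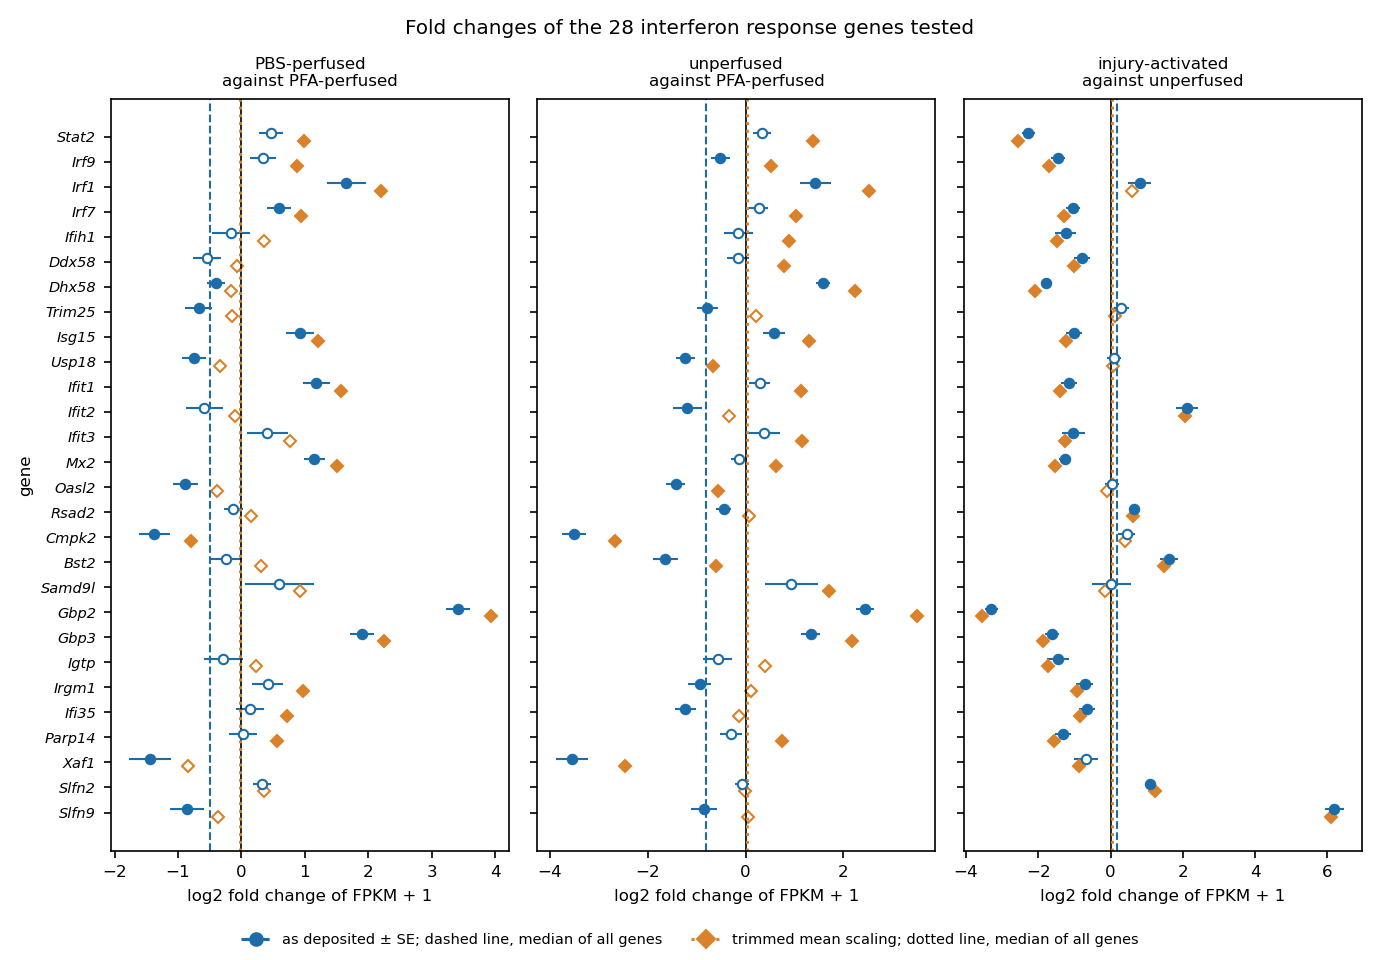
Each row is 1 of the 28 genes tested and each panel 1 comparison; circles are log2 fold changes of FPKM + 1 as deposited with bars ± SE, diamonds the same after trimmed mean scaling, and filled symbols are called at an adjusted p under 0.05. Vertical lines mark the median of all genes (dashed as deposited, dotted after scaling). Scaling shifts most symbols to the right in the panels of PBS-perfused and of unperfused against PFA-perfused cells. In the panel of injury-activated against unperfused cells most symbols lie left of 0 under both, and Slfn9 lies at 6.19.

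Interferons themselves were at or near 0. Of 19 ligand genes listed, 17 were in the table and none passed the filter. The highest value was 0.243 FPKM, of Ifnk in a PFA-perfused library. Ifnb1, the type I gene most cells can induce, was at 0.15 FPKM in 1 PBS-perfused library, at 0.00452 FPKM in 1 injury-activated library and listed at 0 in the other 6.

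Upstream of the induced genes, the receptor, kinase and STAT genes moved in both directions, with large contrasts for Stat3 and Ifnar2. Of 10 tested, 5 were higher and 1 lower in PBS-perfused than in PFA-perfused cells, 5 and 2 in unperfused against PFA-perfused, 4 and 4 in unperfused against PBS-perfused, 1 and 6 in injury-activated against unperfused and 0 and 4 in injury-activated against PFA-perfused cells. After scaling these counts were 8 and 1, 6 and 0, 4 and 2, 1 and 6 and, for the last, 4 and 2. Over all genes the shares higher and lower were, in the same order, 17.8% and 46.2%, 17.4% and 56.3%, 13.1% and 36.5%, 40.8% and 29.3%, and 26.1% and 47.3% as deposited. After scaling they were 28.1% and 26.4%, 35.3% and 32.6%, 24.2% and 22.9%, 39.1% and 33.9%, and 42.5% and 31.1%. The counts of this and the next 3 lists are to be read against these shares, and no difference from them was tested. Ifnar2, a chain of the type I receptor, was at 57.4 and 49.7 FPKM in PFA-perfused, 107 and 131 in PBS-perfused, 38.5 and 40.1 in unperfused and 10.4 and 9.43 in injury-activated libraries. It rose by 1.14 ± 0.21 from PFA-perfused to PBS-perfused cells (limma, adjusted p = 0.00134) and fell by 1.89 ± 0.21 from unperfused to injury-activated cells (adjusted p = 3.98e-05). Ifnar1, the other chain, was highest in the unperfused libraries at 39.4 and 62.4 FPKM and lay between 15.5 and 27.2 FPKM elsewhere. Stat3, which also serves interleukin 6 family receptors, was at 28.5 and 42, 488 and 320, 321 and 314, and 12.7 and 13.1 FPKM in the 4 groups.

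The sensor, adaptor and inducing-factor genes outside the list of 33 moved in both directions. Of 16 tested, 7 were higher and 4 lower in PBS-perfused against PFA-perfused cells, 7 and 3 in unperfused against PFA-perfused, 1 and 4 in unperfused against PBS-perfused, 3 and 7 in injury-activated against unperfused and 5 and 5 in injury-activated against PFA-perfused cells. Scaling gave 10 and 1, 10 and 2, 6 and 4, 3 and 8 and, for the last, 10 and 2. Irf3, the factor that TBK1 phosphorylates to induce interferon genes, was at 36.2 and 34.3 FPKM in PFA-perfused, 17.1 and 16.3 in PBS-perfused, 6 and 6.58 in unperfused and 3.07 and 2.78 in injury-activated libraries. Its ranges did not overlap, and it was called lower at each of these 3 steps, the first of which was not called after scaling, at -0.44. Tbk1 itself had another order, at 13.9 and 10.2, 45.7 and 30.7, 75.1 and 93.8, and 20.5 and 19.5 FPKM. Myd88, the adaptor of Toll-like and interleukin 1 receptors, was at 50.7 and 50.2 FPKM in PBS-perfused libraries and at 8.95 and 9.38 FPKM in PFA-perfused libraries. Tmem173, which encodes STING, was highest after injury at 16.5 and 17.7 FPKM.

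Negative regulators of the pathway included genes with large contrasts. Of 14 tested, 5 were higher and 4 lower in PBS-perfused against PFA-perfused cells, 3 and 6 in unperfused against PFA-perfused, 2 and 7 in unperfused against PBS-perfused, 2 and 6 in injury-activated against unperfused and 4 and 8 in injury-activated against PFA-perfused cells. With scaling they were 6 and 2, 8 and 3, 5 and 5, 2 and 8 and, for the last, 5 and 3. Socs1, which encodes an inhibitor of JAK kinases, was at 3.56 and 5.18 FPKM in PFA-perfused, 27.1 and 34.9 in PBS-perfused, 0.37 and 0.602 in unperfused and 0.0275 and 0.0237 in injury-activated libraries. It was thus high in buffer-perfused cells and under 1 FPKM in the other unfixed groups. Socs3, the inhibitor of signalling through STAT3, was at 27.3 and 45.1 FPKM in PBS-perfused and 3.36 and 2.28 FPKM in PFA-perfused libraries. Adar, which edits double-stranded RNA, and Samhd1, which hydrolyses deoxynucleotides, were highest after injury at 17 and 17.9, and 20.5 and 19.8 FPKM.

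A further list of 75 induced genes in the table, other than the 33, gave 52 tested. Of these, 23 were higher and 15 lower in PBS-perfused against PFA-perfused cells, 17 and 20 in unperfused against PFA-perfused, 4 and 25 in unperfused against PBS-perfused, 11 and 22 in injury-activated against unperfused and 12 and 18 in injury-activated against PFA-perfused cells. The scaled values gave 26 and 5, 22 and 11, 7 and 23, 10 and 25 and, for the last, 17 and 13. Casp4, which encodes the caspase that senses bacterial lipopolysaccharide in the cytoplasm, was at 0.0376 and 0.54 FPKM in PFA-perfused, 27.7 and 28.6 in PBS-perfused, 36.2 and 63.1 in unperfused and 1.57 and 1.4 in injury-activated libraries. Iigp1, an immunity-related GTPase gene, was at 0.903 and 0.392, 28.5 and 17.7, 18.2 and 15.6, and 0.866 and 1.74 FPKM. Both were highest in the unfixed, uninjured groups, as Gbp2 and Gbp3 were. Cxcl10, a chemokine gene, was at 17.2 and 36.8 FPKM in PBS-perfused libraries and between 0.543 and 4.96 FPKM in all others. Ly6e, a membrane protein gene, was highest after injury at 239 and 251 FPKM and lowest in the unperfused libraries at 19.5 and 9.3 FPKM.

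**Figure D4:**
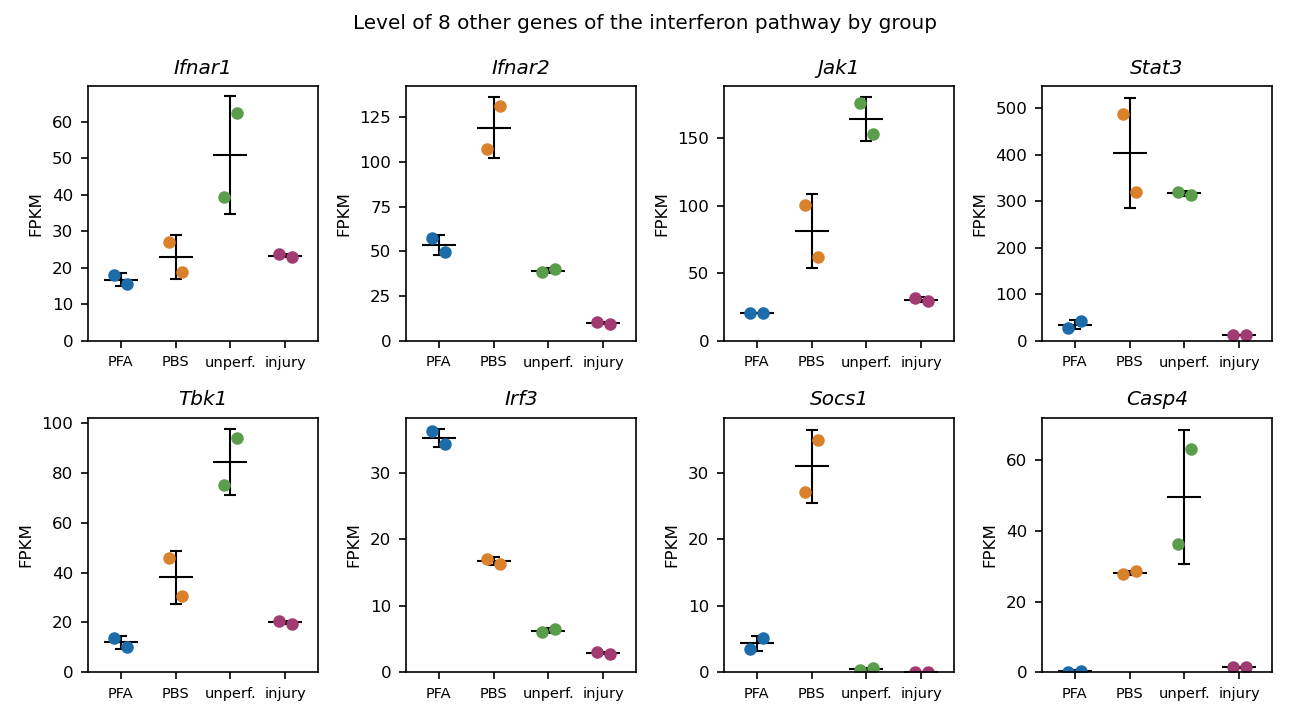
Points are FPKM of single libraries (2 per group) for 8 genes of the interferon pathway outside the list of 33, horizontal lines the group mean and bars ± SD, on linear axes that start at 0. Socs1 is high in the PBS-perfused pair, Irf3 falls from PFA-perfused to injury-activated libraries, and Casp4 is high in PBS-perfused and unperfused libraries.

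Markers of other cell types moved with some of the groups. The 12 endothelial markers summed to 66.1 to 78.2 FPKM in PFA-perfused, 185 to 283 in PBS-perfused, 30.8 to 43.3 in unperfused and 8.28 to 8.7 in injury-activated libraries, and 11 of the 12 were higher in PBS-perfused than in PFA-perfused cells. As deposited, the PBS-perfused libraries thus had the highest endothelial sum together with the highest means of 16 of the 33 interferon genes. The 14 haematopoietic markers summed to 8.36 to 9.13, 44.9 to 47, 26.8 to 38.1 and 66.7 to 75.2 FPKM in the same order. In the unperfused libraries most of that sum was Cd68, at 32.1 and 23 FPKM, and 12 of the 14 were under 1 FPKM. Of the 8 tested, 7 were higher and 1 lower in injury-activated than in unperfused cells, with the macrophage gene Lyz2 at 42.9 and 44 FPKM against 0.39 and 0.32, and 5 were higher and 0 lower in PBS-perfused than in PFA-perfused cells. Among them Itgam was at 0 in the PFA-perfused pair, Adgre1 in the unperfused pair and Siglech in the unperfused and injury-activated pairs, and the leukocyte marker Ptprc did not exceed 0.25 FPKM anywhere. Fibro-adipogenic markers (10 genes) summed to 861 to 1400, 637 to 748, 903 to 1140 and 126 to 155 FPKM, sums carried mainly by Dpt, Col3a1, Gsn and Cd34, and their single genes moved otherwise. Of the 10, 6 were higher and 2 lower in PBS-perfused than in PFA-perfused cells. In injury-activated against unperfused cells 5 were higher and 4 lower. Of all genes tested, 17.8% were higher and 46.2% lower in the first of these comparisons, and 40.8% and 29.3% in the second. The counts of all marker lists are to be read against these shares, and the fibro-adipogenic counts after injury lie near them. No difference from the shares was tested. Dcn was at 5.43 and 2.71, 44.8 and 48.7, 6.46 and 3.23, and 30.7 and 25.8 FPKM in the 4 groups, and Pdgfra, Lum, Ly6a and Mfap5 were likewise called higher in both comparisons. The mural markers (8 genes) summed to 526 to 580, 176 to 232, 121 to 130 and 45.4 to 55.6 FPKM. The part of these cell types, and of the Rn45s share, in the differences of the interferon genes was not tested.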

How the data were processed

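RNA-seq values of 8 libraries in 4 groups of 2 were read from 1 deposited table. The header names no unit, and the authors' values were taken as FPKM, because they hold decimals, their totals differ between libraries and StringTie can write it. The submitters' processing notes name STAR 2.5.3a, StringTie 1.3.3, R 3.4.1 and mm9, without roles or settings. Scaling between libraries is not given in the sources used here.

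Values were analysed as log2(FPKM + 1). Genes that reached 1 FPKM in 2 or more libraries (12515 of 24328) were fitted together over all 8 libraries in limma 3.58.1 (R 4.3.3, variance trend, no covariate), and 5 comparisons were tested two-sided, with Benjamini-Hochberg adjustment and a threshold of 0.05. Of the 33 genes, 28 were tested. "Scaling" means the trimmed mean of ratios computed on FPKM (trims of 0.3 for ratio and 0.05 for level). The test was checked on simulated data. The genes, the pathway and marker lists and the comparisons were chosen with earlier results of these data known. Values in every library are given for the members called in at least 1 comparison with a group mean of at least 10 FPKM; others singled out were chosen after their values were seen. Up to 4 called genes per pathway list and comparison, whose higher group mean reached 5 FPKM, could be named, and part of these are. Fixed promoter motifs were matched by exact letters. Alternatives were the replicate number as a block, a separate fit for each pair of groups, no filter, a filter of 5 FPKM, a pseudocount of 0.1, trimmed mean scaling, quantile normalization, removal of Rn45s and Malat1, each library left out, and, added after the data had been seen, both injury-activated libraries averaged to 1. Some items are not reported here.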

Additional observations from a re-analysis of the deposited data

How the results depend on the processing

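Counts of called genes depended mainly on scaling. Against PFA-perfused cells, the number higher in PBS-perfused cells went from 7 to 12 with trimmed mean scaling and 11 with quantile normalization, and the number lower from 7 to 1 and 2, with 4 in the fit of only those groups and 4 with the 5 FPKM filter. Their median, 0.08, became 0.46, 0.38 and, without Rn45s and Malat1, -0.0115. For unperfused cells the number higher went from 5 to 15 and 14 (3 with the 5 FPKM filter), the number lower from 12 to 5 and 4, and the median from -0.22 to 0.58 and 0.56, with -0.54 under the 5 FPKM filter. For unperfused against PBS-perfused cells the number higher went from 1 to 2 and 2 (0 with the 5 FPKM filter, which left Dhx58 untested), the number lower from 12 to 6 and 7, and the median from -0.37 to -0.0855 and -0.0682, with -0.73 under the 5 FPKM filter and -0.66 with the pseudocount of 0.1. After injury against unperfused cells both counts stayed within 1.5 times in all of these, and the median, -0.75, became -0.97 and -0.94, with -0.94 under the 5 FPKM filter, -0.95 with the pseudocount of 0.1 and -0.92 without Rn45s and Malat1. After injury against PFA-perfused cells the number higher went from 4 to 7 and 8 (2 with the injury-activated libraries averaged), the number lower from 16 to 9 with quantile normalization, and the median from -0.87 to -0.24 and -0.0056, with -0.66 without a filter, -1.39 under the 5 FPKM filter, -1.29 with the pseudocount of 0.1 and -1.06 without Rn45s and Malat1.

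Among fold changes of single genes that were called as deposited or in the alternative, the sign turned in 22 cases, all with trimmed mean scaling or quantile normalization. In 70 other cases the sign changed where neither value was called. In unperfused against PFA-perfused cells such signs turned, with trimmed mean scaling and quantile normalization, for Irf9 (0.53, 0.41), Ifih1 (0.89, 0.82), Ddx58 (0.78, 0.92), Trim25 (0.21, 0.23), Mx2 (0.63, 0.81), Rsad2 (0.066, 0.26), Parp14 (0.74, 0.65) and Slfn9 (0.0449, 0.18), and with the former for Irgm1 (0.11). In injury-activated against PFA-perfused cells those called turned with quantile normalization for Irf7 (0.0878), Dhx58 (0.47), Ifit1 (0.0039) and Gbp3 (0.54), and with trimmed mean scaling for Bst2 (0.87).

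Leaving out each library gave ranges of 6 to 10 higher, 4 to 9 lower and a median of -0.16 to 0.22 in PBS-perfused against PFA-perfused cells. They were 3 to 6, 9 to 12 and -0.35 to -0.14 in unperfused against PFA-perfused, and 0 to 3, 9 to 12 and -0.58 to -0.34 in unperfused against PBS-perfused cells. After injury they were 3 to 7, 12 to 17 and -0.94 to -0.56 against unperfused, and 2 to 5, 15 to 18 and -0.91 to -0.84 against PFA-perfused cells. These fits give the remaining library of a group the spread seen in the other groups.

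Replicate numbers are shared between groups, and the differences between replicates correlated between groups at -0.0467 to 0.117. These correlations cannot show whether libraries of the same number also shared a batch. With the replicate number as a block, 7 genes were higher and 7 lower in PBS-perfused against PFA-perfused cells, and no count moved by over 1.5 times. Of 86 calls, 49 held in every alternative in which each gene could be tested. Calls of Dhx58 and Slfn2 are among them, though neither gene was tested without a library of the group that brought it past the filter. The files hold no counts, so the depth behind low values is unknown.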
